A study of Homo sapiens with 18 samples.

Results

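The genes described here make, cut and bind hyaluronan: the synthases HAS1, HAS2 and HAS3, the hyaluronan-depolymerising proteins CEMIP and CEMIP2, the hyaluronidases HYAL1 and HYAL2, the receptors CD44 and HMMR, and ITIH5, an inter-alpha-trypsin inhibitor heavy chain. They are 10 of the 58870 genes in the deposited count table and were picked by name with the levels and fold changes of these same libraries already known. Every value below is therefore a description of these libraries, and an adjusted p of a member gives its place among all genes of the fit rather than independent evidence. RNA was sequenced from WM164, SKMEL28 and A375, established human melanoma cell lines, each overexpressing either GFP or MAFG, with 3 libraries per condition and 18 in all. MAFG is a small MAF transcription factor, and the study asked how gene expression differs once it is raised. In each line the controls went through the same steps as the MAFG cells: lentiviral transduction with a constitutively driven vector, blasticidin selection and culture in RPMI with serum. No label ties the 3 libraries of a condition to separate cultures, so the tests measure the spread between these libraries, which may be technical.

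Hyaluronan is a long, unsulfated sugar polymer of alternating glucuronic acid and N-acetylglucosamine, which the synthases extrude through the plasma membrane while they build it from UDP-sugars. CEMIP and CEMIP2 take part in its breakdown. Hyaluronidases and lysosomal exoglycosidases cut it in acidic compartments, and long and short chains are known to act differently on cells. In the skin hyaluronan fills the matrix around keratinocytes, fibroblasts and melanocytic cells. There it is bound by CD44 and stabilised by heavy chains that are transferred onto it.

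The promoters of CEMIP and ITIH5 are shown because these genes had the largest drop and the largest rise among the members in SKMEL28 and WM164, respectively. The sequences are taken from RefSeq promoter windows on GRCh38.p14 that end at the base before the annotated start, read 5′ to 3′ on the strand of the gene. CEMIP lies on the plus strand at chr15:80779343-80951776 (GENCODE release 44) and its 250-base window at chr15:80779120-80779369, while ITIH5 lies on the minus strand at chr10:7559270-7666998 and its window, without the 32 bases that GENCODE counts to the gene, at chr10:7666999-7667216. Capitals mark a TATAAA hexamer, which opens 30 bases before the RefSeq start of CEMIP. The last 27 bases of the CEMIP window lie inside the gene by GENCODE, whose start thus falls within the hexamer.
CEMIP: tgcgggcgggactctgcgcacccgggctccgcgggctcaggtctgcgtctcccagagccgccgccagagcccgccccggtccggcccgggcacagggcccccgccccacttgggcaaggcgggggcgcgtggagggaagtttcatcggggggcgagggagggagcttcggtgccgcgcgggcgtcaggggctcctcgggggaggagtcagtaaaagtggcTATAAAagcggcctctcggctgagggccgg
ITIH5: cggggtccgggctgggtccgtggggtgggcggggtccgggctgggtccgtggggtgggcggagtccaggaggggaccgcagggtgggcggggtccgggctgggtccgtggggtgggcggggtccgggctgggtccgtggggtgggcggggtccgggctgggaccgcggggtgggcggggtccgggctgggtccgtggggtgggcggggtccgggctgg

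The CEMIP window held 74.4% G and C and the ITIH5 window 82.8%, against a median of 58.0% over 27305 RefSeq windows of 250 bases. All values of this paragraph are for full windows of 250 bases, so for ITIH5 they take in the 32 bases not printed above. One stretch of 12 bases occurred 7 times in the ITIH5 window, whereas in the CEMIP window no 12 bases occurred more than 1 time. The windows of 9 of the 10 genes were searched on both strands for TGANTCA (the AP-1 motif, present in 6.6% of all windows), for CATGTG (the M-box, in 9.54%), for CACGTG (the E-box, in 6.49%) and for TGCTGA (the core of the site bound by MAF proteins, in 14.1%). On the strand of the gene they were also searched for TATAAA (in 7.17%). Besides TATAAA in CEMIP, the matches were the E-box in HAS3 and the MAF core in HYAL1 and, on the other strand, in CD44. They lay 66, 188 and 183 bases before the RefSeq start, in windows that lie wholly inside the GENCODE genes. The ITIH5 window held none of these letters, which says nothing of the factors that bind there.

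The overexpressed gene was checked first. MAFG was at 25.8 ± 2.91 CPM with GFP and 53.1 ± 4.59 with MAFG in WM164 (counts scaled to library size by TMM over all 18 libraries, SD, n = 3). It was at 24.1 ± 3.47 and 37.3 ± 1.54 CPM in SKMEL28 and at 27.0 ± 4.98 and 47.3 ± 9.24 in A375, and the conditions did not overlap in any line. The rise passed the edgeR test in WM164 (log2 fold change 1.04, adjusted p = 6.37e-08) and SKMEL28 (0.64, adjusted p = 1.28e-04) but not in A375 (0.80, adjusted p = 0.0655). On the deposited TPM scale MAFG differed more, at 2.50 to 3.51 TPM with GFP and 20.9 to 27.5 with MAFG in WM164, 3.23 to 4.43 and 14.1 to 19.4 in SKMEL28, and 3.94 to 4.52 and 22.4 to 28.2 in A375. The reason for the gap between the scales was not tested. Depth ranged from 20122172 to 39025042 counts per library. The melanocytic markers MITF, PMEL, MLANA, TYR, DCT and SOX10 were all expressed in WM164 and SKMEL28, with summed levels from 2416 to 4826 CPM. A375 had sums from 35.3 to 41.5 CPM with GFP and 119 to 172 with MAFG, and MLANA and TYR were at 0 counts in all of its libraries. The 12 markers of fibroblasts, keratinocytes, leukocytes and endothelial cells summed to 3.37 to 21.9 CPM in all conditions. The methods describe a strand-specific kit and the labels one without strand, so genes whose exons overlap an antisense gene are uncertain: HAS2 shares 251 exon bases with HAS2-AS1, HAS3 365 with CHTF8, CEMIP 224 with MESD, HMMR 113 with HMMR-AS1 and CD44 84 with CD44-AS1. HYAL2 shares 509 exon bases with TUSC2 on its own strand, and for ITIH5, CEMIP2, HYAL1 and HAS1 no exon is shared. MAFG itself shares 105 exon bases with SIRT7 on its own strand and 224 with an antisense noncoding gene, so its counts are uncertain too.

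With MAFG, 1 member was called in each line: ITIH5, at 16.2 times its GFP level in WM164, CEMIP, 4.63-fold lower in SKMEL28, and HAS2, at 13.0 times its GFP level in A375. ITIH5 had a larger fitted fold than HAS2 in A375 (log2 fold change 4.01) but was not called there. A call needed a fold above 2 and, in the quasi-likelihood test of edgeR, an adjusted p (Benjamini-Hochberg, over all genes tested in the line) of at most 0.05. In WM164, 9 of the 10 members passed the filter on low counts and 1 was called, ITIH5, against 6.94% of all genes tested. By the adjusted p alone 3 passed, all of them higher (ITIH5, CD44 and CEMIP2), against 31.8%. In SKMEL28, 8 were tested and 1 was called, CEMIP, against 4.74% of all genes. By the adjusted p alone 7 passed, against 29.9%, of which 4 were higher (CEMIP2, HAS2, CD44 and HMMR) and 3 lower (CEMIP, ITIH5 and HYAL2). In A375, 8 were tested and HAS2 was the 1 member called, against 0.665% of all genes, and also the 1 that passed the adjusted p alone, against 0.843%. The tested members had median log2 fold changes of 0.28 (WM164), -0.07 (SKMEL28) and 0.27 (A375), and all genes medians of -0.00, -0.01 and -0.00. Nothing is read from these counts, since the fold changes were known when the genes were picked.

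**Figure D1:**
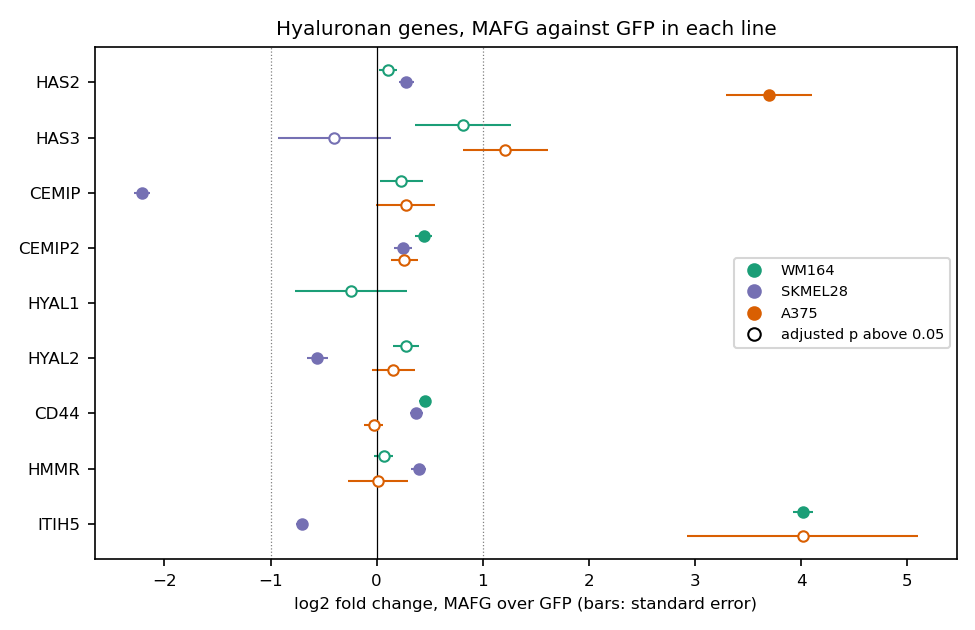
Log2 fold change of MAFG over GFP (x axis) for each member tested in a line, with bars for the standard error, filled points for an adjusted p of at most 0.05 and dotted lines at the fold limit of 2. ITIH5 in WM164, CEMIP in SKMEL28 and HAS2 in A375 are the filled points beyond the dotted lines.

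Of the synthases, HAS2 carried nearly all of the transcripts in WM164 and SKMEL28. On the deposited TPM scale, which is per transcript length, HAS2 made up 88.2% to 99.7% of the summed TPM of HAS1, HAS2 and HAS3 in these lines. The sum was 2.69 to 4.33 TPM in WM164 and 11.6 to 14.0 in SKMEL28. In A375 with GFP the sum was 0.200 to 0.660 TPM and the share of HAS2 9.09% in replicates 1 and 2 and 40% in replicate 3. With MAFG the sum was 1.32 to 1.84 TPM and the share 44.6% to 49.4%, so that HAS2 and HAS3 were near each other there. The share of GFP replicate 3 was thus close to those with MAFG. HAS1 had 0 counts in all 18 libraries, which allows up to 3 counts per library.

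HAS2, the synthase that makes very long chains, had 6, 11 and 18 counts in the A375 GFP libraries and 160, 150 and 192 in the A375 MAFG libraries, or 0.156, 0.299 and 0.502 CPM against 4.04, 3.97 and 4.47. Every MAFG library lay above every GFP library, and HAS2 rose by 3.70 on the log2 scale (standard error 0.41, adjusted p = 0.00153 from edgeR with Benjamini-Hochberg adjustment). HAS2 passed the filter on low counts in A375 only through its MAFG libraries. Even so, its level with MAFG in A375 stayed below that of either other line, where it was 22.6, 23.4 and 24.9 CPM in WM164 with GFP and 26.5, 23.8 and 26.3 with MAFG. The WM164 conditions overlapped (log2 fold change 0.11, standard error 0.08, adjusted p = 0.354). In SKMEL28, HAS2 was highest of all lines, at 67.1, 56.2 and 61.4 CPM with GFP and 75.4, 79.3 and 69.9 with MAFG. The conditions did not overlap, and HAS2 rose by 0.28 on the log2 scale (standard error 0.07, adjusted p = 0.00842). That last rise, under the fold limit, no longer passed the adjusted p in a model of all 18 libraries, where the log2 fold change was also 0.28 (adjusted p = 0.0912), without MAFG replicate 2 (adjusted p = 0.0538) and on the TPM scales. As in all bulk RNA, more cells with HAS2 and more HAS2 RNA per cell cannot be told apart.

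The antisense neighbour HAS2-AS1 was too low in A375 to show whether it moved with HAS2. In A375 it had at most 3 counts in any library of either condition and was not tested. HAS2 had 502 counts over the MAFG libraries. HAS2-AS1 was at 0.717 to 3.22 CPM in WM164 and SKMEL28, with log2 fold changes of -0.17 and -0.01 (adjusted p = 0.714 and 0.987 from edgeR). HAS3, which makes shorter chains, was at 0.215 to 3.94 CPM in all libraries. In A375 it was at 1.41, 2.47 and 0.697 CPM with GFP and 3.94, 3.29 and 3.44 with MAFG, without overlap, but the log2 fold change of 1.21 (standard error 0.40) had an adjusted p of 0.446. Its log2 fold change was 0.82 in WM164 and -0.40 in SKMEL28, with adjusted p of 0.195 and 0.627.

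**Figure D2:**
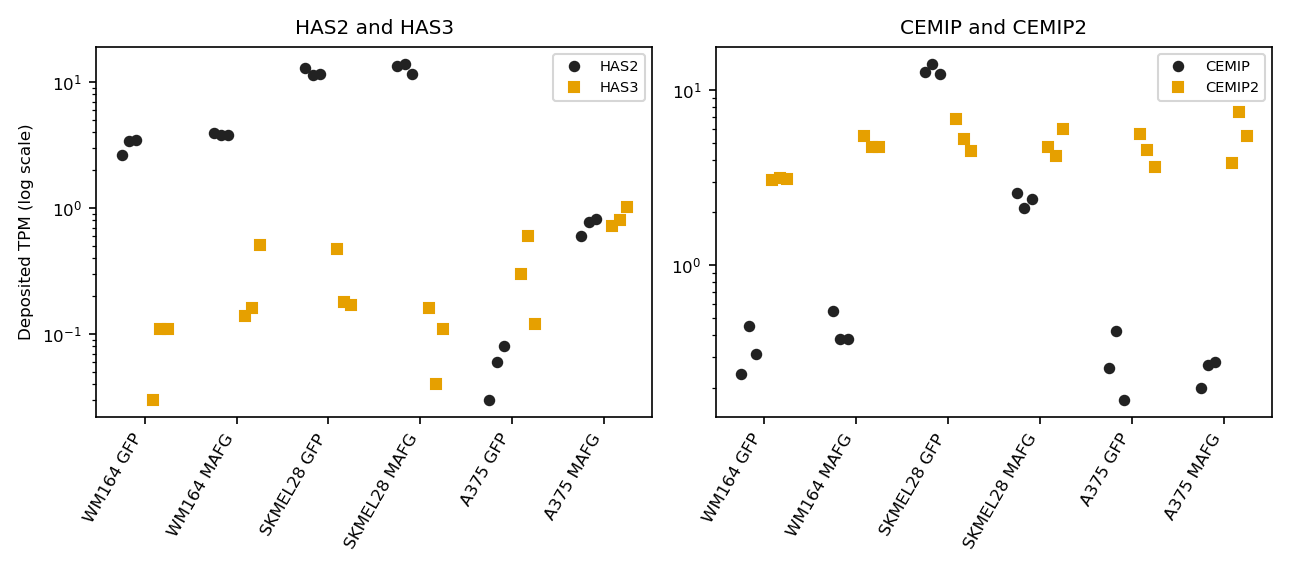
Deposited TPM (y axis, log scale) of HAS2 and HAS3 (left) and of CEMIP and CEMIP2 (right) in each library, grouped by line and condition. HAS2 lies far above HAS3 in WM164 and SKMEL28 and near it in A375 with MAFG, and CEMIP lies above CEMIP2 in 1 condition of the 6, SKMEL28 with GFP.

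Among the breakdown genes, CEMIP and CEMIP2 moved apart in SKMEL28. CEMIP, which binds hyaluronan and is needed for its depolymerisation by skin fibroblasts, was at 109, 112 and 109 CPM in the SKMEL28 GFP libraries and at 25.1, 20.9 and 25.1 in the MAFG libraries. The conditions lay far apart, and CEMIP fell by 2.21 on the log2 scale (standard error 0.07, adjusted p = 7.50e-12 from edgeR with Benjamini-Hochberg adjustment). Under the 14 alternatives for this fold change it stayed between -2.42 and -2.06. In the other lines CEMIP was low, at 3.57, 5.34 and 3.87 CPM in WM164 with GFP and 6.33, 4.18 and 4.57 with MAFG. It was at 1.88, 2.45 and 1.79 in A375 with GFP and 2.35, 2.38 and 2.65 with MAFG. The conditions overlapped in both lines (log2 fold changes 0.23 and 0.27, adjusted p = 0.431 and 0.997).

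CEMIP2, a transmembrane paralogue of CEMIP with reported hyaluronidase activity, was nearly even across the lines, at 21.5 to 35.9 CPM in the 18 libraries. It was at 22.8, 26.0 and 24.1 CPM with GFP and 34.2, 34.1 and 30.9 with MAFG in WM164, without overlap, and rose by 0.44 on the log2 scale (standard error 0.08, adjusted p = 4.14e-04 from edgeR). In SKMEL28 it was at 29.7, 28.3 and 26.1 CPM with GFP and 31.9, 32.2 and 35.9 with MAFG, and in A375 at 25.5, 21.5 and 22.8 with GFP and 26.0, 30.8 and 27.0 with MAFG. Neither pair of conditions overlapped, and the log2 fold changes were 0.25 (adjusted p = 0.0320) and 0.26 (adjusted p = 0.868). The SKMEL28 value no longer passed the adjusted p without GFP replicate 2 or 3 or MAFG replicate 2 or 3 (adjusted p from 0.0535 to 0.130) or in the 18-library model (log2 fold change also 0.25, adjusted p = 0.0920), and on the TPM scales the direction turned, to -0.13 and -0.15.

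Per length, CEMIP was 1.85 to 2.75 times CEMIP2 in the SKMEL28 GFP libraries (12.3 to 14.1 TPM against 4.47 to 6.85) and 0.397 to 0.547 times CEMIP2 in the SKMEL28 MAFG libraries (2.13 to 2.57 TPM against 4.17 to 5.99). The order of the 2 genes was thus reversed in every library of that line, while in WM164 and A375 CEMIP stayed at 0.0362 to 0.142 times CEMIP2 in both conditions.

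Of the hyaluronidases, HYAL2 was lower with MAFG in SKMEL28 and HYAL1 was near the limit of detection outside WM164. HYAL2, a GPI-anchored hyaluronidase of the cell surface, was at 18.7, 19.6 and 17.8 CPM in the SKMEL28 GFP libraries and at 13.3, 11.7 and 12.9 in the MAFG libraries, without overlap. It fell by 0.56 on the log2 scale (standard error 0.10, adjusted p = 5.99e-04 from edgeR), within -0.72 and -0.51 under all 14 alternatives. In WM164 HYAL2 was at 10.7 to 13.0 CPM with GFP and 12.7 to 16.9 with MAFG (log2 fold change 0.28, adjusted p = 0.0944), and in A375 at 10.04 to 13.9 and 9.44 to 16.7 (0.16, adjusted p = 0.997), with overlap in both. Without MAFG replicate 3 the WM164 value passed (adjusted p = 0.0487). HYAL1, the lysosomal and plasma hyaluronidase, had 10 to 49 counts per library in WM164 (log2 fold change -0.24, standard error 0.53, adjusted p = 0.778) and 0 to 5 counts per library in the other lines, where it was not tested within the line.

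**Figure D3:**
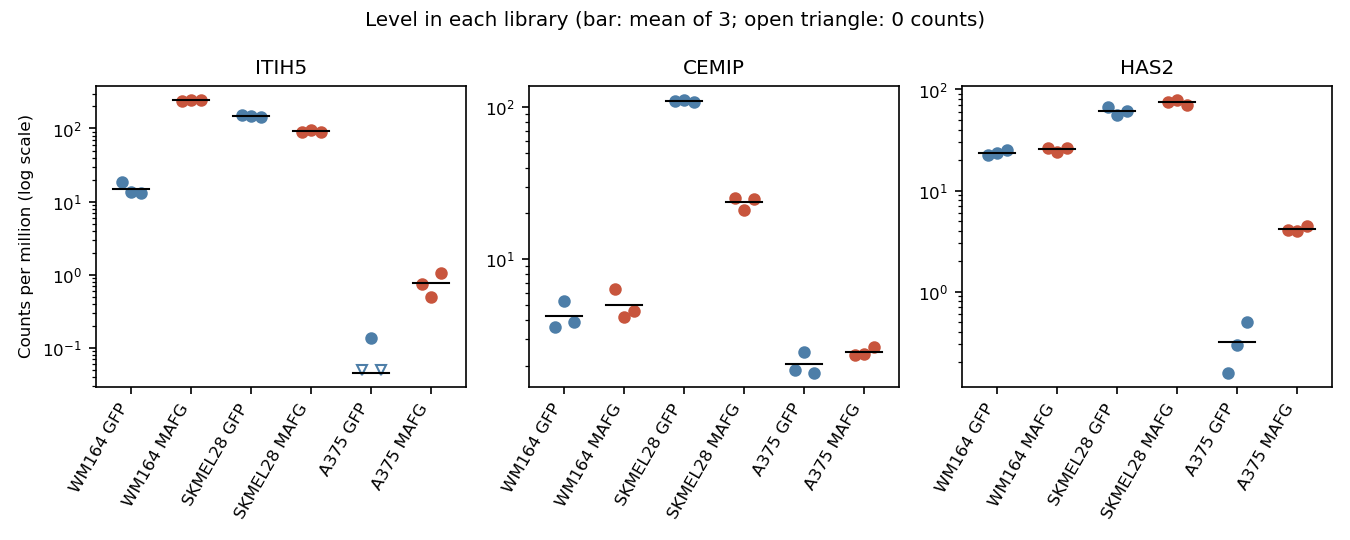
Level of ITIH5, CEMIP and HAS2 (y axis, CPM on a log scale) in each of the 18 libraries, with GFP in blue and MAFG in red, bars at the mean of 3 libraries and open triangles for libraries at 0 counts. ITIH5 in WM164, CEMIP in SKMEL28 and HAS2 in A375 each separate the 2 conditions by far more than the spread within a condition.

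CD44, the main cell surface receptor for hyaluronan, was the most abundant member in every condition on the TPM scale, at 174 to 461 TPM. It was at 338, 372 and 345 CPM in the WM164 GFP libraries and at 485, 483 and 477 in the MAFG libraries, and rose by 0.45 on the log2 scale (standard error 0.05, adjusted p = 2.54e-06 from edgeR). In SKMEL28 it was at 486, 473 and 487 CPM with GFP and at 629.5, 666 and 575 with MAFG, and rose by 0.37 (standard error 0.06, adjusted p = 2.37e-04), but did not pass on the TPM scales (0.22, adjusted p = 0.110 with a pseudocount of 1). Neither pair overlapped. In A375 it was at 395, 395 and 392 CPM with GFP and at 436, 360 and 369 with MAFG, with MAFG libraries on both sides of the GFP libraries (log2 fold change -0.03, standard error 0.09, adjusted p = 0.997).

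HMMR, which binds hyaluronan at the cell surface and the spindle in dividing cells, was higher in SKMEL28 with MAFG, at 189, 190 and 174 CPM against 143, 126 and 151 with GFP. The conditions did not overlap and HMMR rose by 0.40 on the log2 scale (standard error 0.07, adjusted p = 4.59e-04 from edgeR), but did not pass in the 18-library model, where the log2 fold change was also 0.40 (adjusted p = 0.209). A list of 16 mitotic genes, without HMMR, moved the same way there. Of these, 13 of 16 were higher at an adjusted p of at most 0.05, against 29.9% of all genes passing in either direction, with a median log2 fold change of 0.39. Their sum went from 4767 to 4982 CPM with GFP to 6489 to 6927 CPM with MAFG. As a percentage of that sum HMMR was at 2.64% to 3.04% with GFP and 2.51% to 2.91% with MAFG, which overlap. Whether HMMR moved with the share of dividing cells was not tested.

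In WM164 the mitotic list went the other way, with 13 of 16 genes lower at that threshold (median log2 fold change -0.26), against 31.8% of all genes passing in either direction. HMMR was at 93.8, 77.5 and 99.5 CPM with GFP and 88.4, 88.9 and 106 with MAFG (log2 fold change 0.07, standard error 0.09, adjusted p = 0.618). HMMR was 3.01% to 3.39% of the mitotic sum with GFP and 3.85% to 4.17% with MAFG, without overlap. In A375, where 0 of the 16 mitotic genes passed the edgeR test (0 also at an unadjusted p under 0.05), HMMR was at 65.4, 63.3 and 67.8 CPM with GFP and at 33.9, 75.5 and 87.6 with MAFG. MAFG replicate 1 stood apart with a mitotic sum of 3396 CPM against 4451 and 4525 in the other MAFG libraries, and without it the log2 fold change of HMMR was 0.34 (adjusted p = 0.0816) in place of 0.01.

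**Figure D4:**
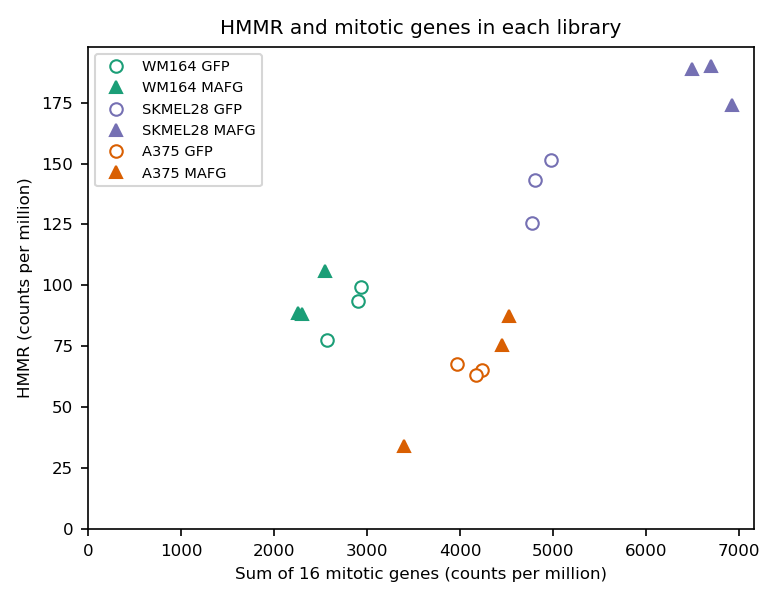
HMMR (y axis, CPM) against the sum of 16 mitotic genes (x axis, CPM) in each of the 18 libraries, with open circles for GFP, triangles for MAFG and colours for the lines. The SKMEL28 MAFG libraries lie to the upper right of the SKMEL28 GFP libraries, and 1 A375 MAFG library, at 3396 and 33.9 CPM, lies below all others of its line.

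ITIH5, a secreted heavy chain that can be linked to hyaluronan, moved in opposite directions in the 2 melanocytic lines. It was at 18.5, 13.5 and 13.0 CPM in the WM164 GFP libraries and at 238, 248 and 245 in the MAFG libraries, and rose by 4.02 on the log2 scale (standard error 0.10, adjusted p = 1.99e-15 from edgeR with Benjamini-Hochberg adjustment). In SKMEL28 it was at 151, 150 and 145 CPM with GFP and at 89.4, 95.1 and 89.5 with MAFG, and fell by 0.70 on the log2 scale (standard error 0.06, adjusted p = 1.66e-07). That 1.63-fold lower level is under the fold limit. The conditions did not overlap in either line, and ITIH5 was higher in SKMEL28 than in WM164 with GFP but lower with MAFG. On the TPM scale it went from 1.43 to 1.69 TPM up to 31.0 to 32.6 TPM in WM164 and from 22.1 to 26.6 TPM down to 11.99 to 13.2 TPM in SKMEL28.

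In A375, ITIH5 had 0, 5 and 0 counts in the GFP libraries and 30, 19 and 46 in the MAFG libraries. The conditions did not overlap and the fitted log2 fold change was 4.01 (standard error 1.09), with an adjusted p of 0.226, and the gene passed the filter on low counts only through its MAFG libraries. DESeq2 (adjusted p = 0.0326), no filter on low counts (0.0177) and a model of all 18 libraries (7.52e-05) called it, and the other alternatives that could be run for it did not. Without GFP replicate 2, which holds all of its GFP counts, its GFP libraries are at 0. At 0.503 to 1.07 CPM, its level with MAFG in A375 was below the lowest GFP library of WM164.

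The response to MAFG, the log2 fold change of MAFG over GFP, was compared between lines in 1 edgeR model of all 18 libraries. Of 9 members tested, 2 differed between WM164 and SKMEL28 by the call, against 5.1% of all genes, and 3 by the adjusted p alone, against 13.7%. ITIH5 differed by 4.72 (standard error 0.20, adjusted p = 2.27e-12), CEMIP by 2.45 (standard error 0.21, adjusted p = 9.68e-08) and HYAL2 by 0.84 (standard error 0.24, adjusted p = 0.0234), all higher in WM164. The HYAL2 difference no longer passed without replicate 2 of any of the 4 conditions of these lines (adjusted p from 0.0565 to 0.0817) or with the replicate block (0.0872). Between WM164 and A375, 1 member was called, against 4.39%, and 2 passed the adjusted p alone, against 9.21%. HAS2 differed by -3.60 (adjusted p = 2.04e-09) and CD44 by 0.47 (adjusted p = 0.00474). On the TPM scale with a pseudocount of 1 neither passed (HAS2 -0.49, adjusted p = 0.0612, and CD44 0.59, adjusted p = 0.0528), and with 0.1 CD44 did not (adjusted p = 0.0568). Between SKMEL28 and A375, 3 were called, against 4.2%, and 4 passed the adjusted p alone, against 9.51%. CEMIP differed by -2.49 (adjusted p = 2.18e-07), HAS2 by -3.42 (adjusted p = 5.12e-09), ITIH5 by -4.72 (adjusted p = 6.28e-06) and CD44 by 0.39 (adjusted p = 0.0197). The size of the ITIH5 difference rests on the near-empty A375 GFP libraries: leaving out 1 library gave -8.33 (without A375 GFP replicate 2) to -4.14, and the TPM scale with a pseudocount of 1 gave -1.12, all past the adjusted p. This CD44 difference was lost without MAFG replicate 2 of A375 (0.0514) or of SKMEL28 (0.0694), with the replicate block (0.0506) and on the TPM scales. The responses of CEMIP2 and HMMR did not pass in any pair, with differences of at most 0.19 for CEMIP2 and -0.33 to 0.39 for HMMR. Each line enters 2 of these differences, so they are not independent of each other.

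GFP levels were compared between the lines in the same model. By the call, 4 of 9 members tested differed between WM164 and SKMEL28, against 28.7% of all genes, 5 between WM164 and A375, against 46.7%, and 4 between SKMEL28 and A375, against 43.8%. The counts for the pairs with A375 are near the share of all genes. CEMIP was highest in SKMEL28, with a log2 difference of 5.75 from A375 and of -4.68 between WM164 and SKMEL28, and WM164 was 1.07 above A375 in counts, but 0.057 and 0.20 above it on the TPM scales (adjusted p = 0.658 and 0.489). HAS2 was highest in SKMEL28 and lowest in A375 (-1.38 for WM164 minus SKMEL28 and 6.21 for WM164 minus A375). ITIH5 also had this order (-3.30 for WM164 minus SKMEL28), with 330 to 519 counts in WM164 against 0 to 5 in A375. HYAL1 was called in WM164 against both other lines, with 17 to 49 counts against 0 to 4. It passed the filter on low counts only through its WM164 libraries. The call against SKMEL28 was lost without WM164 GFP replicate 1 (adjusted p = 0.0558). HMMR was 1.10 higher in SKMEL28 than in A375 (adjusted p = 6.99e-05 from edgeR), and HAS3 was lower in WM164 than in A375 (log2 difference -1.34, adjusted p = 0.0185), a call lost without WM164 GFP replicate 1 (0.0945) or A375 GFP replicate 2 (0.162). CD44 differed by -0.45 to 0.29 between lines and CEMIP2 by -0.21 to 0.27, and WM164 and A375 were not told apart for CD44 (adjusted p = 0.0531), CEMIP2 (0.584) or HYAL2 (0.989). These GFP libraries are the controls of the responses above, so levels and responses share them.

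A wider list of 36 other genes of hyaluronan biology was chosen from general knowledge, with earlier results of these data known: 7 that make the UDP-sugar precursors, 5 other breakdown enzymes, 6 other receptors, 9 matrix proteins that bind hyaluronan, 6 other inter-alpha-inhibitor genes and 3 linkers between CD44 and actin. In WM164 21 were tested and 3 were called, all higher, against 6.94% of all genes, and 15 passed the adjusted p alone, against 31.8%, 9 higher and 6 lower (median log2 fold change 0.22). In SKMEL28 19 were tested and 4 were called, 3 higher and 1 lower, against 4.74%, and 10 passed the adjusted p alone, against 29.9%, 8 higher and 2 lower (median 0.14). In A375 18 were tested and edgeR called 0, against 0.665% (median 0.05), with 1 at an unadjusted p under 0.05, while DESeq2 called 2, VCAN and ITIH6.

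The genes called in WM164 were HAPLN1, the link protein that fixes proteoglycans to hyaluronan, TNFAIP6, which transfers heavy chains onto it, and TLR4, an innate immune receptor that short hyaluronan chains can engage. HAPLN1 went from 97.3, 104 and 106 CPM with GFP to 403, 414 and 445 with MAFG, and rose by 2.03 on the log2 scale (standard error 0.06, adjusted p = 2.06e-14 from edgeR). TNFAIP6 was low, at 0.678, 1.13 and 1.26 CPM with GFP and 3.25, 1.85 and 3.49 with MAFG, and rose by 1.49 (standard error 0.33, adjusted p = 0.00213). TLR4 rose by 1.33 (adjusted p = 9.59e-06), from 2.49 to 3.64 CPM up to 7.24 to 8.19. TLR4 shares 678 exon bases with another protein-coding gene on its own strand, so its counts are uncertain in every line. The heavy chain gene ITIH6 went from 99.1 to 108 CPM up to 200 to 208 (log2 fold change 0.98, adjusted p = 1.68e-10), just under the fold limit. VCAN, the proteoglycan versican, named here after its values were seen, lay just under it too, with 91.1 to 102 CPM against 181 to 193 (0.96, adjusted p = 5.59e-10). VCAN shares 453 exon bases with the antisense gene VCAN-AS1. BCAN, also among the matrix genes and named after its values were seen, fell by 0.80 (adjusted p = 3.36e-06 from edgeR). Of the 6 matrix genes tested in WM164, 3 passed the adjusted p higher and 1 lower, against 31.8% of all genes passing in either direction.

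In SKMEL28, TLR4 rose as well, from 3.10 to 4.31 CPM up to 9.05 to 11.4 (log2 fold change 1.46, adjusted p = 8.91e-06 from edgeR). On the TPM scales it was also higher but did not pass (0.31, adjusted p = 0.386 with a pseudocount of 1, and 0.70, adjusted p = 0.344 with 0.1). ACAN, the proteoglycan aggrecan, rose 2.47-fold, from 10.4 to 14.2 CPM up to 27.6 to 33.0 (adjusted p = 3.82e-07). GFPT2, which feeds the hexosamine pathway that supplies UDP-N-acetylglucosamine, rose by 1.37 from a low level, 0.246 to 0.863 CPM, to 1.29 to 1.802 (adjusted p = 0.0310), a call lost without GFP replicate 1 or 2 or MAFG replicate 1 or 3 (adjusted p from 0.0681 to 0.104). Within SKMEL28, GFPT2 passed the filter on low counts only through its MAFG libraries. ITIH6 fell by 1.70, from 9.96 to 13.2 CPM down to 3.003 to 4.02 (adjusted p = 1.54e-06), in the direction of ITIH5 in this line. Its response differed between WM164 and SKMEL28 by 2.68 (adjusted p = 2.39e-07). In A375, ITIH6 had 0 counts in each GFP library and 9, 16 and 41 in the MAFG libraries and was not tested. VCAN had 25, 12 and 3 counts with GFP and 51, 149 and 93 with MAFG (log2 fold change 2.79, standard error 0.66, adjusted p = 0.129). Within A375, VCAN passed the filter on low counts only through its MAFG libraries. Without MAFG replicate 1 of A375, VCAN (adjusted p = 0.0177) and HAPLN1 (0.52, adjusted p = 0.00861) passed.

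Some genes of the list with smaller changes are named here after their values were seen. The linkers EZR and MSN were lower in WM164 (log2 fold changes -0.16 and -0.40, adjusted p = 0.0395 and 5.38e-06 from edgeR) and RDX was at 0.07 (adjusted p = 0.347), while all 3 linkers were higher in SKMEL28 (EZR 0.40, MSN 0.55, RDX 0.32). The response of MSN differed between the 2 lines by -0.95 (adjusted p = 1.41e-06). UGDH, which makes UDP-glucuronic acid, rose by 0.65 in SKMEL28 (adjusted p = 2.12e-06), whereas in WM164 it was at -0.13 (adjusted p = 0.148). Of the 7 precursor genes, 5 passed the adjusted p in WM164, 4 higher and 1 lower, against 31.8% of all genes. In SKMEL28 3 of the 7 passed, all higher, against 29.9%. Among those higher in WM164 was GFPT2 (0.57, adjusted p = 7.82e-05), which did not pass on the TPM scales (adjusted p = 0.133 and 0.140). The lysosomal exoglycosidase genes HEXA and GUSB fell in WM164, by 0.35 and 0.23, and HEXA fell in SKMEL28, by 0.17, where GUSB did not pass (adjusted p = 0.996). LYVE1, STAB1 and STAB2, hyaluronan receptors of endothelial cells, did not pass the filter on low counts in any line.

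**Figure D5:**
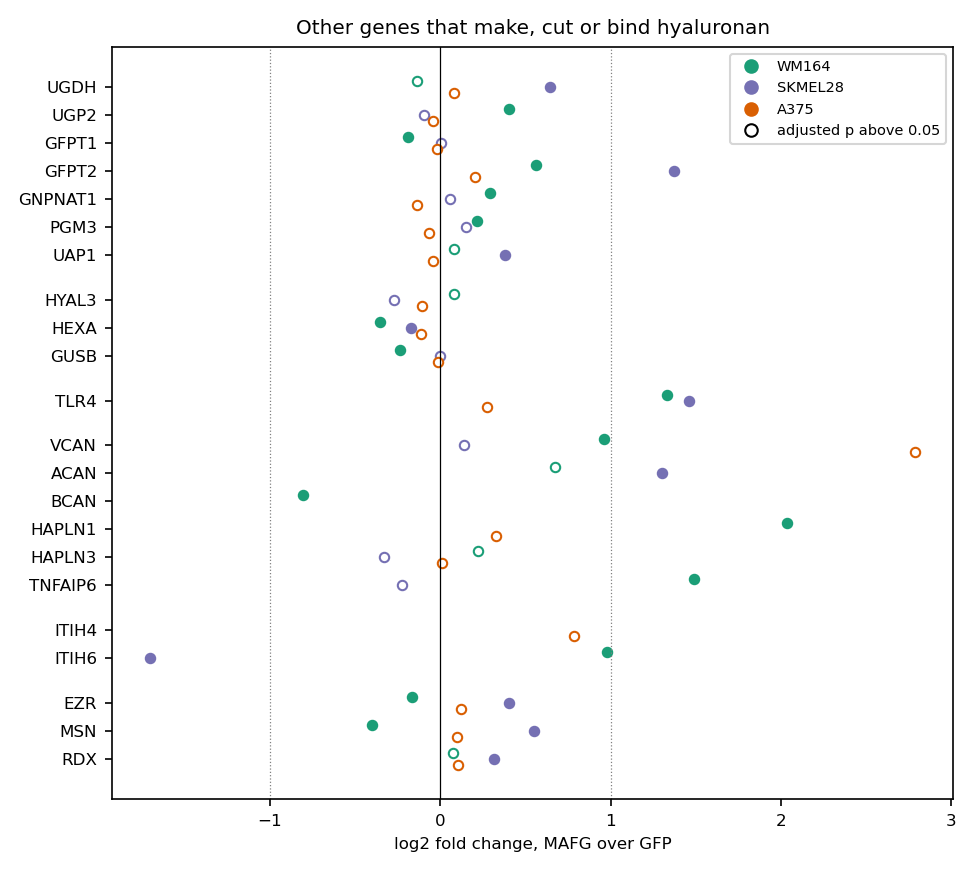
Log2 fold change of MAFG over GFP (x axis) for each gene of the wider list tested in a line, in order of role from precursor synthesis to CD44 linkers, with filled points for an adjusted p of at most 0.05 and dotted lines at the fold limit of 2. HAPLN1, TNFAIP6 and TLR4 in WM164 and TLR4, GFPT2, ACAN and ITIH6 in SKMEL28 are the filled points beyond the lines, and all A375 points are open.

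Genes whose pattern over the 18 libraries was most like that of ITIH5, CEMIP and HAS2 were found by the Pearson correlation of log2 CPM after subtracting the mean of each line, among 13375 genes tested in all lines. For HAS2 they were SOX10 (0.983), RXRG (0.971) and PDE4B (0.962), and SOX10, a neural crest and melanocyte transcription factor, had 266 to 411 counts in the A375 GFP libraries and 3855 to 5630 with MAFG. For CEMIP they were TRPS1 (0.969), PPFIBP1 (0.957) and GPC6 (0.954), with log2 fold changes in SKMEL28 of -1.92, -0.67 and -3.13. For ITIH5 they were AIM2 (0.960), SPRY4 (0.951) and SLC35F1 (0.944), with log2 fold changes in WM164 of 4.97, 0.78 and 2.52. The libraries share lines, depth and the contrast, so these values are descriptions only. Of the other melanocytic markers in A375, MITF had 998 to 1111 counts with GFP and 879 to 1219 with MAFG. PMEL had 0 to 12 with GFP and 3 to 22 with MAFG. DCT had 0 with GFP and 0 to 1 with MAFG, and MLANA and TYR had 0 in both conditions.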

How the data were processed

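RNA-seq of 18 libraries was used, 3 for each of the 6 conditions, grouped by the sample labels. Per the methods, reads were trimmed and aligned to GRCh38 (STAR), and the authors took per-gene counts of uniquely aligned reads from featureCounts. The submitters' processing notes name cutadapt 1.8.1, STAR 2.7.7a and RSEM 1.3.0. The deposited counts are whole numbers per gene without normalization, and the TPM values deposited by the authors are scaled per transcript length and library. Neither the annotation release nor any strand setting of the counter is given in the sources used here. Of the 10 members, 10 matched GENCODE release 44 by identifier. No sample column was left unused (0).

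MAFG was compared with GFP within each line using the counts of 6 libraries and R 4.3.3 and edgeR 4.0.16 (TMM scaling, filterByExpr, quasi-likelihood test, Benjamini-Hochberg adjustment over all genes tested), and lines were compared in 1 model of all 18 libraries. Calls needed an adjusted p of at most 0.05 and a log2 fold change beyond 1. The standard error is the absolute log2 fold change over the square root of F. Median standard errors were 0.11 (WM164), 0.12 (SKMEL28) and 0.18 (A375), at a median depth of 31061375 counts. Conditions in which no library exceeded 3 counts for a gene were taken to be at the floor. CPM values printed per library share 1 scale, TMM over all 18 libraries. Replicate pairs differed by more than sampling noise (mean chi-square per gene 5.90 to 96.7 over 18 pairs). The 2 highest values were those of A375 MAFG replicate 1 against replicates 2 and 3 (68.7 and 96.7). Replicates 2 and 3 of that condition gave 15.8, and the next highest pair, A375 GFP replicates 1 and 3, gave 30.2. Calls over all genes in A375 ranged from 55 to 153 when 1 library was left out, so the A375 results depend on single libraries. The scripts were tested on simulated data.

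The members and lists were chosen with earlier results of these data known. Named are all members, MAFG, HAS2-AS1, genes of the wider list called in at least 1 line, the mitotic list as a count and median, and the 3 genes most like each of the 3 most changed members. VCAN, BCAN, the linkers, UGDH, the lysosomal genes and the endothelial receptors were named after their values were seen. The counts of matrix and precursor genes that passed were also added then. One further gene is not reported here and enters no count of the wider list; this did not depend on its values. The alternatives were DESeq2 1.42.0, its size factors in edgeR, no filter, a minimum of 10 counts throughout, the replicate block, limma 3.58.1 on log2(TPM + 1) or with a pseudocount of 0.1 (genes reaching a TPM of 1 in 3 libraries), the 18-library model, no fold limit and each library left out. Figures were drawn with matplotlib 3.10.9.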

Additional observations from a re-analysis of the deposited data

Results flagged for a closer look

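Responses to MAFG that differed between lines, as log2 fold changes of MAFG over GFP in 1 line minus the other and by the adjusted p of edgeR's quasi-likelihood test in the 18-library model, are listed here by gene. CEMIP was 2.45 higher in WM164 than in SKMEL28 and -2.49 in SKMEL28 against A375. ITIH5 was 4.72 higher in WM164 than in SKMEL28 and -4.72 in SKMEL28 against A375, where its A375 GFP libraries had 0, 5 and 0 counts and leaving out 1 library gave -8.33 to -4.14. HYAL2 was 0.84 higher in WM164 than in SKMEL28. HAS2 was -3.60 in WM164 and -3.42 in SKMEL28 against A375. CD44 was 0.47 higher in WM164 and 0.39 higher in SKMEL28 than in A375. On the TPM scale with a pseudocount of 1, the HAS2 difference from WM164 (adjusted p = 0.0612) and both CD44 differences (0.0528 and 0.543) did not pass.

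Of the wider list, TNFAIP6 (1.71) and ITIH6 (2.68) were higher in WM164 than in SKMEL28. TLR4 was higher than in A375 in WM164 (1.05) and in SKMEL28 (1.18), GFPT2 was higher in SKMEL28 than in A375 (1.12), and HAPLN1 was higher in WM164 than in A375 (1.71). VCAN was at -1.79 in WM164 and at -2.61 in SKMEL28 against A375, where its GFP libraries had 25, 12 and 3 counts. The TNFAIP6 difference lost its adjusted p of 0.05 when any of 5 libraries was left out (up to 0.0616), and that of GFPT2 when most libraries were (up to 0.135). The TLR4 differences did not pass on the TPM scales with a pseudocount of 1 or 0.1 (adjusted p of 0.270 and 0.169 for WM164, 0.540 and 0.490 for SKMEL28), nor did that of GFPT2 (0.274 and 0.113) and, with a pseudocount of 1, that of VCAN in SKMEL28 (0.123). The VCAN difference from WM164 was lost without A375 GFP replicate 2 or 3 (0.0528 and 0.0683). With limma on the TPM scale with a pseudocount of 1 it was 0.82 (adjusted p = 0.00936), passing in the other direction. With a pseudocount of 0.1 it was -0.088 (adjusted p = 0.924). Each pair shares a line with the other pairs, so these differences are not independent. No condition had the 4 libraries that a test for a single outlying library needs.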

How the results depend on the processing

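The calls of ITIH5 in WM164 and CEMIP in SKMEL28 held under all alternatives run for them, and that of HAS2 in A375 under all 11 that could be run for it. HAS2 was not tested under a minimum of 10 counts throughout or on the TPM scales, and 0 members were called in A375 there. A375 gave 2 members with DESeq2, 3 without a filter and 2 in the 18-library model, and 2 genes of the wider list under each of these. Leaving out 1 library at a time gave 3 to 5 wider-list genes in WM164 (5 without GFP replicate 2, adding VCAN and ITIH6) and 0 to 2 in A375 (2 without MAFG replicate 1, VCAN and ITIH6). With the adjusted p alone, 3 members passed in WM164, 7 in SKMEL28, 2 for WM164 against A375 responses and 7 for GFP levels of WM164 and of A375 against SKMEL28, and 15 and 10 wider-list genes passed in WM164 and SKMEL28. On the TPM scales, SKMEL28 gave 0 (pseudocount 1) and 2 (0.1) wider-list genes, the WM164 against A375 response 2 members (0.1), and the GFP levels of these lines 2 with either. Under the minimum of 10 counts, 1, 0 and 1 members were called for the responses and 1, 1 and 2 for the GFP levels of WM164 against SKMEL28, WM164 against A375 and SKMEL28 against A375. The cause was not tested beyond the fewer genes that a stricter filter admits.

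Values that had passed the adjusted p turned direction on the TPM scales only: CEMIP2 in SKMEL28 (-0.13 with pseudocount 1 and -0.15 with 0.1), the GFP level of HMMR in WM164 against A375 (-0.17 and -0.18) and the response of VCAN in WM164 against A375 (0.82 with pseudocount 1). The other turns were of values that had not passed. On the same scales VCAN in SKMEL28 was at -0.29 and -0.39, HMMR in A375 at -0.35 and -0.37, GFPT2 in A375 at -0.088 and -0.11 and TLR4 in A375 at -0.092 and -0.13. Leaving out 1 library, HYAL1 in WM164 ranged from -0.60 to 0.35, HMMR in WM164 from -0.037 to 0.14, CD44 in A375 from -0.091 to 0.016 and HMMR in A375 from -0.27 to 0.34.

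Libraries with the same number did not deviate together (correlations from -0.040 to 0.030 over 9 pairs). These values cannot tell whether libraries of the same number were prepared together. With the replicate block the calls were 1 member in each line, 3, 4 and 0 wider-list genes, HMMR in A375 was at -0.10, and the A375 calls over all genes went from 105 to 64 (15 to 311 over all alternatives). The responses of HYAL2 (WM164 against SKMEL28) and CD44 (SKMEL28 against A375) lost their adjusted p of 0.05 there (0.0872 and 0.0506). Over all genes, WM164 gave 1105 calls and SKMEL28 736, with the fewest on the TPM scale with pseudocount 1 (384 and 226) and the most by the adjusted p alone (5065 and 4640). Depth limits HAS1, HYAL1 outside WM164 and ITIH5 in A375, which rest on 0 to 46 counts per library.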
